A study of Mus musculus with 2 samples.

Results

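The 8 genes described here are Piwil2, Piwil4, Mov10l1, Gtsf1, Gtsf1l, Mael, Asz1 and Pld6, which encode Piwi proteins and factors that make or assist Piwi-interacting RNAs (piRNAs). They were chosen by name for that role, with earlier results of these data known, so counts among them are a description. All 8 were among the 17244 genes listed for either library. The cells were male germ cells of CD1 mouse embryos, an outbred strain, taken at E13.5 and at E12.5 and isolated by FACS through Oct4-GFP, a fluorescent reporter of the pluripotency gene Pou5f1. Both groups carried the same reporter and differ in the labels only by embryonic stage, and each is a single 10x v2 library. The labels do not give the number of embryos behind a library.

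Because a stage has 1 library, no difference has a replicate check and none was tested. Effects of the stage and of the library cannot be told apart, and all intervals cover counting error only. A level is given in CPM, the UMIs of a gene (transcript ends counted once each) per 1000000 UMIs of the summed germ-like cells of a library. Because the assay counts 1 end per transcript, levels of different genes were compared as molecules, with no correction for length. Fewer cells expressing a gene and less RNA per cell cannot be told apart in such a sum, which is why shares of cells are given as well.

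piRNAs are small RNAs of the germline that guide Piwi proteins to the transcripts and genes of transposable elements, whose activity they repress. In the fetal mouse testis, piRNAs made in the cytoplasm load PIWIL2 (MILI) and PIWIL4 (MIWI2), and PIWIL4 enters the nucleus, where transposon DNA is methylated anew in germ cells that have stopped dividing. Precursor RNAs are handled by the helicase MOV10L1 and cut on the surface of mitochondria by the nuclease PLD6, with ASZ1 (GASZ) as a scaffold there. GTSF1 is a zinc finger partner of Piwi proteins, GTSF1L is its paralog, and MAEL (Maelstrom) acts in the germ granules and nucleus of the same pathway.

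Germ-like cells numbered 2553 at E13.5 and 2506 at E12.5, with 58620434 and 59729214 UMIs in sum and a median of 21840 and 23460 UMIs per cell. In these cells, summed germ markers stood at 8099 CPM at E13.5 and 7194 CPM at E12.5, against 12.9 and 11.4 CPM for Sertoli markers. Clusters were named from these same markers, so the sums describe the chosen cells and are no check of the germ cell label. Endothelial markers stood at 35.4 CPM at E13.5 and 94.0 CPM at E12.5, with 4 of 6 listed for both libraries, and erythroid markers at 22.4 and 0.285 CPM, with 3 of 6 listed for both. Summed markers of each of the other somatic types were under 9 CPM at both stages, and the part of any of these in the results was not tested. The sort gene Pou5f1 stood at 700.4 CPM at E13.5 and 499.9 CPM at E12.5, the germ cell gene Dppa3 at 3008 and 1849 CPM, and Dazl, an RNA-binding regulator of germ cells, at 1170 and 802 CPM. The libraries shared 24 barcodes, 9 of them germ-like in both libraries. Different clusters held the cells of the libraries, so cells divided first by stage or library.

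In GRCm38 all 8 genes are annotated as protein-coding. Among the Piwi genes, Piwil2 lies at chr14:70372477-70429383 and Piwil4 at chr9:14696230-14740733, both on the minus strand. Mov10l1 lies at chr15:88982909-89055152 on the plus strand, and Gtsf1 on the minus strand of the same chromosome at chr15:103402405-103430470. Its paralog Gtsf1l lies at chr2:163087034-163087855, Mael at chr1:166201201-166238747, Asz1 at chr6:18050964-18109061 and Pld6 at chr11:59783897-59787645, all on the minus strand. An antisense gene overlaps Piwil4, and small RNA genes lie within Piwil2 and Mov10l1, but none of these overlapping genes was listed for either library. Reads that fit both paralogs, Gtsf1 and Gtsf1l, would make their separate counts uncertain.

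The promoters of 4 of the genes are printed to show which hold the E-box letters CACGTG, read by factors such as MYC and MAX, and to set them beside Gtsf1, which differed most between the libraries. RefSeq (GRCm38.p6) had promoter entries for 7 of the 8 genes, all but Piwil2, each running from 250 bases before to 50 bases after a gene start. The lines give the bases of an entry upstream of the outermost gene start in RefSeq or GENCODE, 5′ to 3′ on the gene's strand, with the E-box in capitals. For Mov10l1 and Pld6 that is the RefSeq start, at position 88982891 and 59787657, which lies upstream of the GENCODE start given above. They span chr1:166238748-166238994 for Mael, chr15:88982744-88982890 for Mov10l1, chr11:59787658-59787907 for Pld6 and chr15:103430471-103430677 for Gtsf1.
Mael: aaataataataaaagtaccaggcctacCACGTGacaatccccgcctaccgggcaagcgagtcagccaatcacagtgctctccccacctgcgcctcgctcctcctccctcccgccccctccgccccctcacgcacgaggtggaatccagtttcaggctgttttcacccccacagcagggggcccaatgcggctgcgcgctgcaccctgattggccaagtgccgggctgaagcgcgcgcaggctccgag
Mov10l1: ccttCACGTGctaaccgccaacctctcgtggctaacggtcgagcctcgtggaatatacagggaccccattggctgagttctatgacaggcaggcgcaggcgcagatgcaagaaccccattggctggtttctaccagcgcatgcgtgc
Pld6: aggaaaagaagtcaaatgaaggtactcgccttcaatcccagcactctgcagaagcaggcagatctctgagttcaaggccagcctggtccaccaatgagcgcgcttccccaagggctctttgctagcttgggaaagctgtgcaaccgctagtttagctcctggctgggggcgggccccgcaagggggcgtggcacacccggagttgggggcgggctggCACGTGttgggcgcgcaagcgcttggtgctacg
Gtsf1: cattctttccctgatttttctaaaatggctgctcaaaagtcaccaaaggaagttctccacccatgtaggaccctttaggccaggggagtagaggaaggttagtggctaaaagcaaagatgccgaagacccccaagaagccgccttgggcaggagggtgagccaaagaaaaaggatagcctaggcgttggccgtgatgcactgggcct

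On both strands, the E-box was found in the entries of Mael and Mov10l1 and in 1 of 2 entries of Pld6, against 7.15% of all 32851 entries. Counted from that outermost start, its first base lay 220 bases upstream in Mael, 143 bases in Mov10l1 and 33 bases in Pld6. It was not found in the entries of Gtsf1, Gtsf1l, Piwil4 and Asz1. The E2F letters GCGGGAA, held by 4.60% of all entries, were in none of the entries of these genes, whereas the MYB core AACNG is held by 80.3% of entries and tells little apart. The entries also differed in CpG dinucleotides: Mael had 24, Mov10l1 20, Asz1 17 and Gtsf1 13, and the 2 entries of Pld6 had 25 and 18, against a median of 7 over all entries. The 2 entries of Piwil4 had 11 and 0, and Gtsf1l had 2, in an entry at the RefSeq start (163089601), well upstream of the GENCODE start. A match is a description of letters and not a site.

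UMIs of all 8 genes were counted in germ-like cells of both stages, and all 8 genes stood higher in the E13.5 library than in the E12.5 library. The size of the difference set them apart. Gtsf1, Piwil4, Gtsf1l, Mael and Mov10l1 were at least 1.5-fold higher, while Pld6, Piwil2 and Asz1 lay within 1.5-fold and none was 1.5-fold lower. Of 11284 genes at a mean of at least 1 CPM, 13.4% stood at least 1.5-fold higher at E13.5 and 13.8% at least 1.5-fold lower, with a median ratio of 0.995. The median ratio of the 8 genes was 1.73, and their summed level was 357 CPM at E13.5 and 216 CPM at E12.5.

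The share of all genes that differ by this size depends on the level. Among genes at a mean of 1 to 10 CPM, the range of Piwil4 and Pld6, 23.3% were at least 1.5-fold higher and 21.8% lower. The shares were 8.53% and 9.78% at 10 to 100 CPM, where Gtsf1l, Gtsf1, Piwil2, Asz1 and Mov10l1 lie, and 1.99% and 4.25% above 100 CPM, where Mael lies. Set against those ranges, 1 of 2, 3 of 5 and 1 of 1 of the 8 genes were at least 1.5-fold higher. With a mean of 103 CPM, Mael lies just over the edge between the upper 2 ranges.

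**Figure D1:**
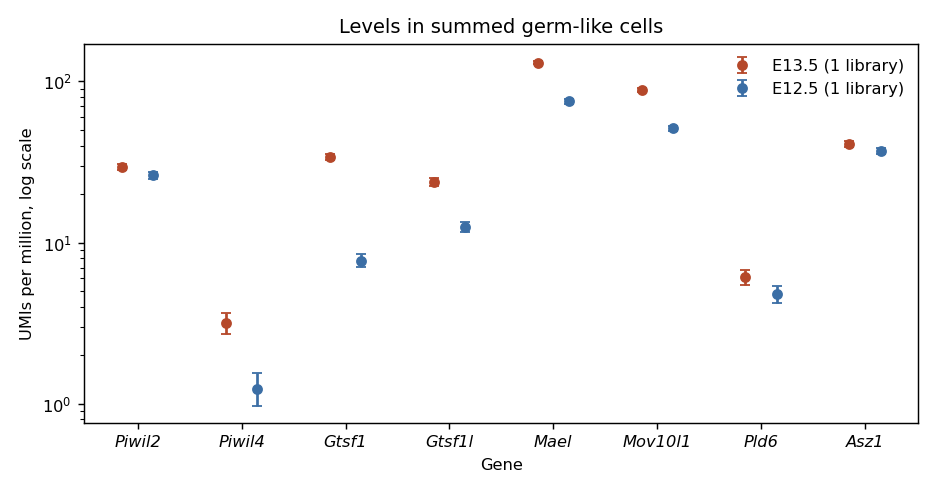
Level of each of the 8 genes in summed germ-like cells, in CPM on a log axis, at E13.5 (left of each pair) and E12.5, with 95% Poisson intervals. Mael is the most abundant at both stages, at 131 and 75.1 CPM, and the gap between the stages is widest for Gtsf1.

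Of the Piwi genes, Piwil2 was nearly level and Piwil4 was scarce but differed more. Piwil2, whose protein carries piRNAs in the cytoplasm, had 1724 UMIs at E13.5 and 1560 at E12.5, or 29.4 CPM (28.0 to 30.8) against 26.1 CPM (24.8 to 27.4). As E13.5 over E12.5, its ratio was 1.13 (1.05 to 1.21), and 1.04 with a stricter cell filter. Piwil4, the nuclear Piwi protein of fetal germ cells, had 185 UMIs at E13.5 and 74 at E12.5, or 3.16 CPM (2.72 to 3.64) against 1.24 CPM (0.973 to 1.56). Its ratio was 2.55 (1.94 to 3.38), the less precise for so few UMIs, and 3.88% of the 11284 genes had a higher ratio. Piwil2 was the more abundant of this pair at both stages.

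The Piwi partner genes gave the widest contrast. Gtsf1 had 1990 UMIs at E13.5 and 461 at E12.5, or 33.9 CPM (32.5 to 35.5) against 7.72 CPM (7.03 to 8.46). It was thus 4.40-fold higher (3.97 to 4.88), with 1.64% of genes at a higher ratio. Its paralog Gtsf1l had 1395 UMIs at E13.5 and 742 at E12.5, or 23.8 CPM (22.6 to 25.1) against 12.4 CPM (11.5 to 13.3), a ratio of 1.92 (1.75 to 2.10). The paralogs changed places between the stages: Gtsf1 stood above Gtsf1l at E13.5 and below it at E12.5, with intervals that did not overlap at either stage.

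Mael and Mov10l1 were the most abundant of the 8 and had nearly the same ratio. Mael had 7656 UMIs at E13.5 and 4488 at E12.5, or 131 CPM (128 to 134) against 75.1 CPM (73.0 to 77.4), a ratio of 1.74 (1.68 to 1.80). Mov10l1, the helicase that handles piRNA precursors, had 5195 UMIs at E13.5 and 3060 at E12.5, or 88.6 CPM (86.2 to 91.1) against 51.2 CPM (49.4 to 53.1), a ratio of 1.73 (1.65 to 1.81). The intervals of these ratios overlap almost whole.

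Both genes of the mitochondrial surface lay within 1.5-fold, as Piwil2 did. Asz1 had 2404 UMIs at E13.5 and 2205 at E12.5, or 41.0 CPM (39.4 to 42.7) against 36.9 CPM (35.4 to 38.5), a ratio of 1.11 (1.05 to 1.18). Pld6, the nuclease that cuts precursors, had 357 UMIs at E13.5 and 285 at E12.5, or 6.09 CPM (5.47 to 6.76) against 4.77 CPM (4.23 to 5.36), a ratio of 1.28 (1.09 to 1.497). With the E12.5 level stated as a part of the E13.5 level, Asz1 stood at 90.0%, Piwil2 at 88.8% and Pld6 at 78.4%. Mov10l1 stood at 57.8%, Mael at 57.5%, Gtsf1l at 52.2%, Piwil4 at 39.3% and Gtsf1 at 22.7%.

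**Figure D2:**
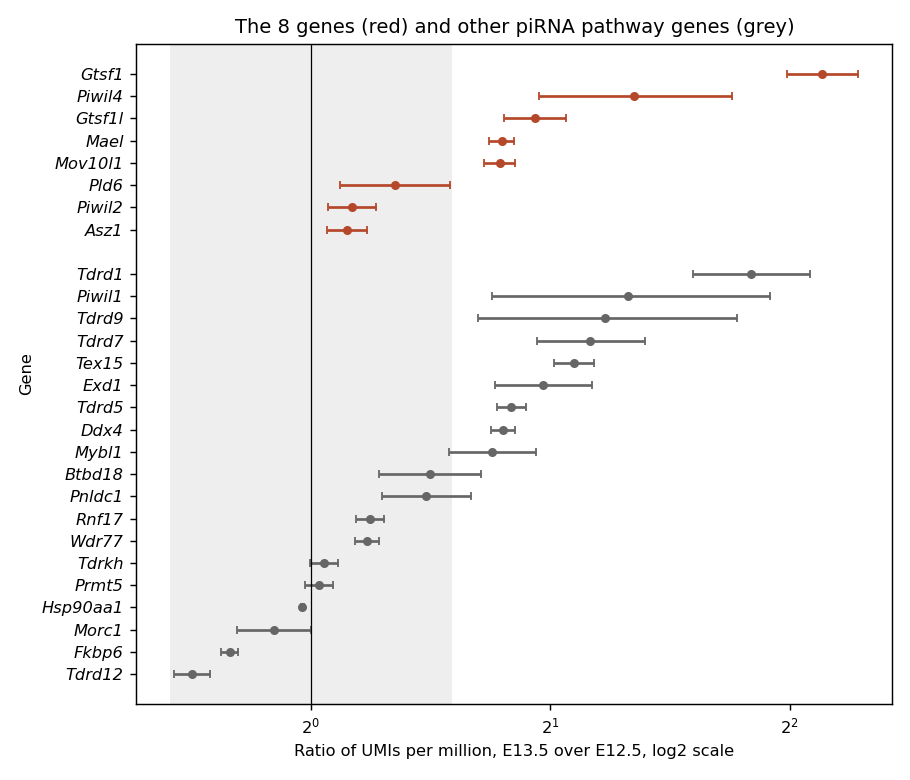
Ratio of E13.5 over E12.5 on a log axis for the 8 genes (red) and the other 19 piRNA pathway genes at a mean of at least 1 CPM (grey), with 95% counting intervals and the range within 1.5-fold shaded. All 8 red points lie above 1, from 1.11 for Asz1 to 4.40 for Gtsf1, and no grey point lies below the shaded range.

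A further 25 genes of the pathway were listed by name, also with earlier results known, and 19 of them had a mean of at least 1 CPM. Of these 19, 9 stood at least 1.5-fold higher at E13.5, none was 1.5-fold lower and 10 lay in between, beside 13.4% higher over all genes. That share depends on the level. Of the 9, Piwil1, Tdrd1, Tdrd7, Tdrd9, Exd1 and Mybl1 had means of 1 to 10 CPM, where 23.3% of all genes were higher. Tdrd5 and Tex15 lay at 10 to 100 CPM (8.53%) and Ddx4 above 100 CPM (1.99%). The median ratio of the 19 genes was 1.41. The 20 genes with a ratio, the 19 and Henmt1, summed to 7797 CPM at E13.5 and 7829 CPM at E12.5. This sum hardly differed because the chaperone gene Hsp90aa1 made up 6803 and 6972 CPM of it. Tudor domain genes, which organise germ granules, were among the 9. Tdrd1, whose protein binds PIWIL2, stood at 10.8 CPM at E13.5 and 3.01 CPM at E12.5 (3.58-fold, 3.03 to 4.25). Tdrd7 stood at 8.96 and 3.98 CPM, Tdrd5 at 102 and 57.1 CPM, and the helicase gene Tdrd9 at 1.69 and 0.720 CPM.

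The other 5 of the 9 have varied roles. Ddx4, the germ granule helicase also called Vasa, stood at 148 CPM at E13.5 and 84.6 CPM at E12.5 (1.75-fold, 1.69 to 1.81), a ratio like those of Mael and Mov10l1. Tex15, whose protein acts with PIWIL4 in the nucleus, stood at 62.5 and 29.1 CPM (2.15-fold, 2.03 to 2.27). Exd1, an RNA-binding factor of germ granules, stood at 10.1 and 5.16 CPM. Mybl1, the transcription factor of piRNA genes in the adult testis, stood at 11.2 CPM at E13.5 and 6.65 CPM at E12.5. Piwil1, the Piwi gene of postnatal germ cells, was scarce at 1.55 and 0.619 CPM.

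Of the remaining pathway genes, several went the other way or stayed near level, and others were too scarce or not listed for both libraries. Tdrd12 stood at 39.7 CPM at E13.5 and 56.0 CPM at E12.5 (ratio 0.709, 0.673 to 0.748), and Fkbp6 at 199 and 251 CPM (0.791, 0.772 to 0.811). The methyltransferase gene Prmt5 and Wdr77, which encodes its cofactor and with it the complex that methylates Piwi proteins, had ratios of 1.02 and 1.18. Tdrd6, Spocd1 and Dnmt3l were listed for the E13.5 library alone, with 9, 8 and 15 UMIs, and have no ratio. Henmt1, which protects the ends of piRNAs, lay under the minimum level, with 74 UMIs at E13.5 and 15 at E12.5. Its ratio was 5.03 (2.86 to 9.43), so it too stood higher at E13.5. Dnmt3c and Kif17 were listed for neither library.

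To compare shares of cells at equal depth, each germ-like cell was thinned to 14500 UMIs, which kept 2323 cells at E13.5 and 2326 at E12.5 and left out 230 and 180 shallower ones. Most cells held Mael: 79.6% at E13.5 (77.9 to 81.3%) and 60.5% at E12.5 (58.5 to 62.5%). Mov10l1 was seen in 69.4% at E13.5 (67.5 to 71.3%) and 49.7% at E12.5 (47.7 to 51.8%). The share with Gtsf1 stood at 32.2% at E13.5 (30.3 to 34.1%) and 10.6% at E12.5 (9.36 to 11.9%). Gtsf1l was seen in 26.0% (24.2 to 27.8%) and 13.9% (12.55 to 15.40%). For these 4 genes the intervals of the stages lie far apart.

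The near-level genes Asz1, Piwil2 and Pld6 differed little in shares too. Asz1 was seen in 42.5% of cells at E13.5 (40.5 to 44.5%) and 37.8% at E12.5 (35.8 to 39.8%), and Piwil2 in 33.4% (31.4 to 35.3%) and 31.3% (29.4 to 33.2%). For Piwil2 the intervals overlap. Pld6 was seen in 8.74% at E13.5 (7.62 to 9.96%) and 6.75% at E12.5 (5.76 to 7.85%), and these intervals overlap too. Piwil4, which was not near level, was seen in 4.52% (3.71 to 5.45%) and 1.89% (1.38 to 2.53%). Most cells had no Piwil4 UMI at this depth, which does not show that they lack the transcript. Without thinning, the shares at E13.5 and E12.5 were 87.3% and 73.4% for Mael, 42.3% and 15.9% for Gtsf1, 46.5% and 44.6% for Piwil2, and 6.66% and 2.91% for Piwil4. For the other genes they were 81.2% and 66.0% for Mov10l1, 35.5% and 21.1% for Gtsf1l, 56.0% and 52.1% for Asz1, and 12.8% and 10.5% for Pld6.

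Ordered by share, Mael led at both stages, followed by Mov10l1, Asz1 and Piwil2. At E13.5 Gtsf1 and Gtsf1l came next, and at E12.5 Gtsf1l and Gtsf1, before Pld6 and Piwil4 at both stages. Neighbours in this order whose intervals overlap were Piwil2 and Gtsf1 at E13.5 and no others.

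**Figure D3:**
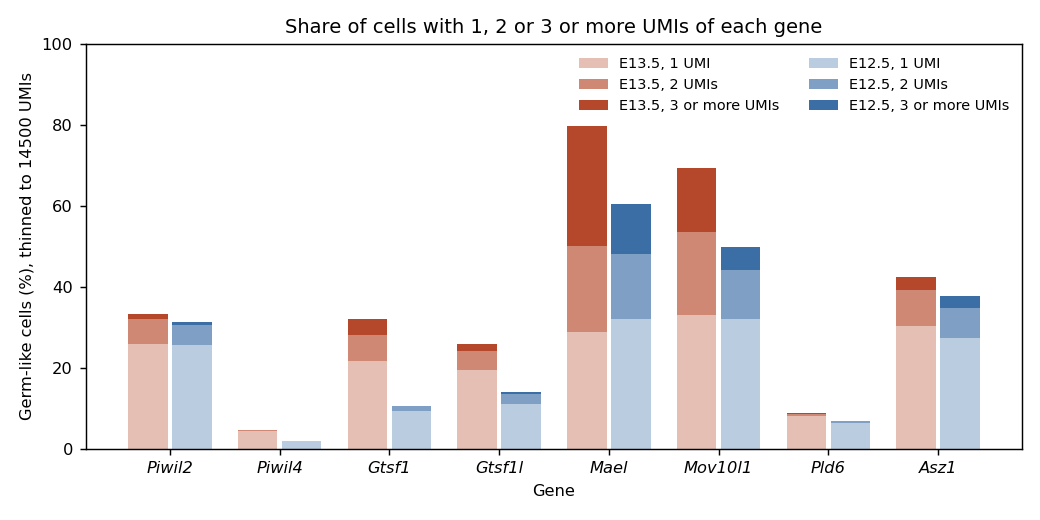
Percent of germ-like cells, each thinned to 14500 UMIs, with 1, 2 or at least 3 UMIs of each gene (stacked), at E13.5 (left of each pair) and E12.5. Cells with at least 2 UMIs of Gtsf1 make up 10.5% at E13.5 and 1.16% at E12.5, and those of Mael 50.8% and 28.5%.

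Cells with a UMI also held more UMIs of some genes at E13.5. Such a mean rises with the overall level by sampling alone, so it does not separate more expressing cells from more copies per cell. Among cells with Gtsf1, the mean was 1.54 UMIs at E13.5 and 1.11 at E12.5, and among cells with Mael it was 2.40 and 1.81. Positive cells held 1.89 and 1.51 Mov10l1 UMIs, but 1.39 and 1.38 Asz1 UMIs. Before thinning, the highest number of Gtsf1 UMIs in a cell was 24 at E13.5 and 4 at E12.5.

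As background from free RNA in droplets, the 29 Sertoli-like cells (25 at E13.5 and 4 at E12.5), somatic cells that should lack these genes, had a median depth of 11418 UMIs. Over all 29 they held no UMI of Mael, Mov10l1, Gtsf1, Piwil4 or Pld6, 1 of Piwil2, and 2 each of Gtsf1l and Asz1, while Pou5f1 had 24 UMIs there. Thinned to 2000 UMIs, 0 of 29 cells held any of the genes other than Gtsf1l, for which the exact binomial interval reaches 11.9%. At 2000 UMIs Mael was seen in 21.6% of germ-like cells at E13.5 and 13.2% at E12.5, above that limit at both stages, and Mov10l1 in 15.8% and 9.96%, above it at E13.5. With 4 Sertoli-like cells from E12.5, the background of that library alone is not bounded by this pooled limit. Piwil2 at 5.49% and 4.96%, Asz1 at 7.60% and 6.397%, Gtsf1 at 6.54% and 1.28%, Pld6 at 1.02% and 1.08% and Piwil4 at 0.549% and 0.0800% were under it, so 29 cells were too few to bound the background of those shares. Gtsf1l was seen in 2 of 29 Sertoli-like cells (6.90%, 0.846 to 22.8%), against 4.94% and 2.44% of germ-like cells at E13.5 and E12.5, so its thinned share cannot be read as above background. Its level over all UMIs was 5.46 CPM in Sertoli-like cells (0.661 to 19.7 CPM), against 23.8 CPM at E13.5 and 12.4 CPM at E12.5. The E12.5 level lies inside that interval. For genes with no UMI in Sertoli-like cells the upper limit was 10.1 CPM. The germ-like levels of Piwil4 and Pld6 at both stages, and of Gtsf1 at E12.5, lay under it, so their background was not bounded.

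Transcripts of 5 of the genes were spread more unevenly over cells than those of most genes of like level. The variance of Gtsf1 UMIs over their mean was 1.67 at E13.5, against a median of 1.04 over genes of like mean, and 1.09 at E12.5, against 1.02. For Gtsf1l it was 1.31 at E13.5 and 1.36 at E12.5, and for Mael 1.53 and 1.42, each above at least 96.9% of genes of like mean. Mov10l1, at 1.25 and 1.21, and Asz1, at 1.18 and 1.22, were above at least 93.4%, and Gtsf1 above 99.7% at E13.5 and 93.1% at E12.5. Piwil2, at 1.07 and 1.02, Piwil4, at 1.04 and 1.03, and Pld6, at 1.05 and 1.02, lay near the value of random sampling. This is a description of thinned counts and separates no cell types.

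Cells held more of the 8 genes at once at E13.5, where the share of cells with each gene was also higher. The median number of the genes seen in a thinned cell was 3 at E13.5 and 2 at E12.5. None of the 8 was seen in 2.28% of cells at E13.5 and 7.09% at E12.5, and at least 4 were seen in 32.3% and 11.3%. No cell had all 8 at either stage. The 8 genes summed to a mean of 5.22 UMIs per cell at E13.5 and 3.13 at E12.5.

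**Figure D4:**
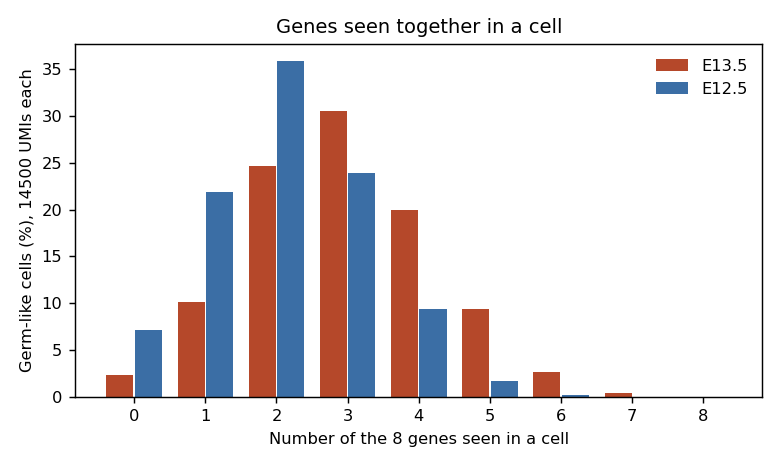
Percent of germ-like cells, each thinned to 14500 UMIs, by the number of the 8 genes with at least 1 UMI, at E13.5 and E12.5. The E13.5 cells lie to the right, with a mean of 2.96 genes per cell against 2.12 at E12.5.

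Within a stage, counts of the genes went together only weakly from cell to cell. Over 28 pairs of genes, Spearman's rho across cells ran between -0.034 and 0.204 at E13.5 (median 0.043) and between -0.039 and 0.073 at E12.5 (median 0.0067). The highest value was that of Gtsf1 with Mael at E13.5. Among the E13.5 cells with a Gtsf1 UMI, 85.1% also held Mael and 33.9% Gtsf1l, against 77.0% and 22.3% of those without. These counts are sparse, and the cells of a stage share a library.

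Cells in different phases of the cycle made up different parts of the libraries. S phase transcripts summed to 1850 CPM at E13.5 and 2729 CPM at E12.5. Cells low in both S and G2/M transcripts, called low-cycle here, were 842 at E13.5 (36.2%) and 24 at E12.5 (1.03%). Cells high in S transcripts were 561 (24.1%) and 1357 (58.3%), and cells high in G2/M transcripts 920 (39.6%) and 945 (40.6%). These classes are ranges of a score, and 115 cells at E13.5 and 128 at E12.5 lay near the boundary.

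Within the E13.5 library, 4 genes were at least 1.5-fold higher in low-cycle than in S-high cells, where 13.9% of all genes were. Piwil2 stood at 40.4 CPM of the summed thinned cells in low-cycle, 21.4 in S-high and 23.2 in G2/M-high cells. Gtsf1l stood at 40.2, 11.4 and 16.6, Gtsf1 at 47.3, 15.2 and 33.5, and Piwil4 at 4.91, 1.97 and 2.55 in the same order. The low-cycle level of Gtsf1l was 3.52-fold that in S-high cells (2.81 to 4.44), and that of Piwil2 1.89-fold (1.58 to 2.26). Against G2/M-high cells, 3 of the 8 genes (Gtsf1l, Piwil2 and Piwil4) were at least 1.5-fold higher in low-cycle cells, beside 10.9% of all genes.

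The remaining genes varied less by phase. Mael stood at 140 CPM in low-cycle, 108 in S-high and 139 in G2/M-high cells at E13.5, and Mov10l1 at 100.4, 73.4 and 91.6. Asz1 stood at 44.3, 38.4 and 38.8, and Pld6 at 6.88, 6.52 and 5.997. Nanos2, an RNA-binding regulator that marks the male germ cell pathway, moved with low-cycle cells too, at 56.4, 9.22 and 13.3.

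**Figure D5:**
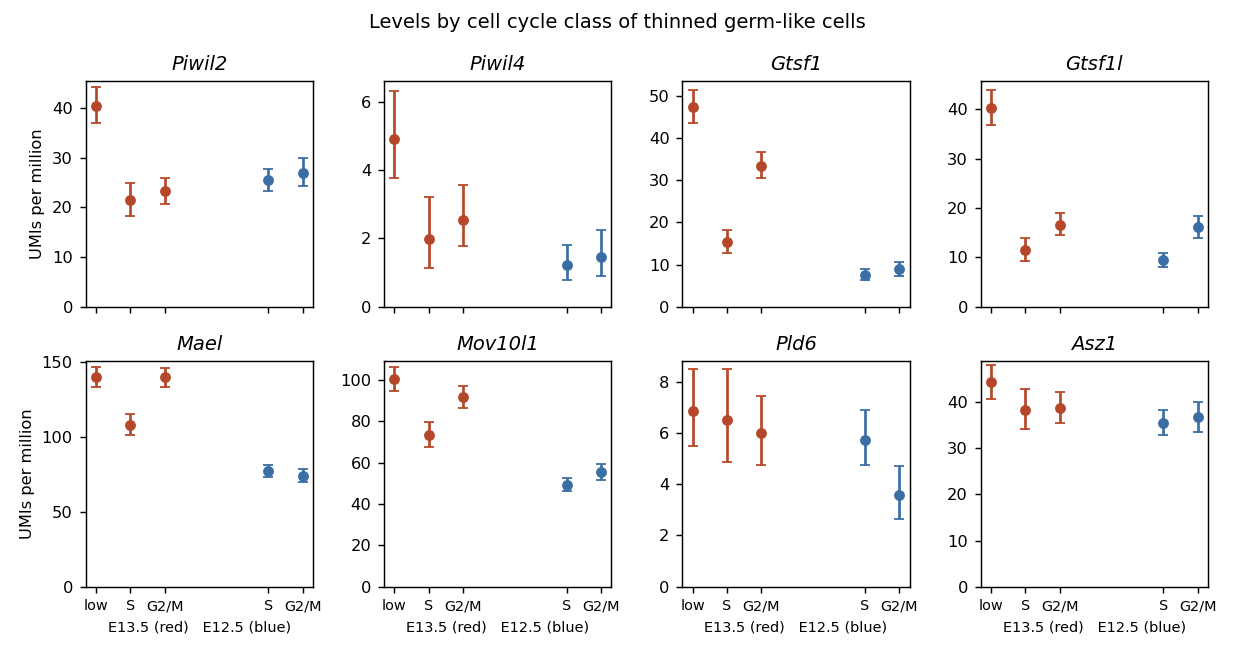
Level of each gene, in CPM of summed thinned germ-like cells, in low-cycle, S-high and G2/M-high cells at E13.5 and in S-high and G2/M-high cells at E12.5, with 95% Poisson intervals (the 24 low-cycle cells at E12.5 are not drawn). Piwil2 is higher in low-cycle cells at E13.5 than in every other set shown, at 40.4 against 21.4 to 26.9.

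Within S-high and within G2/M-high cells, Gtsf1l differed less between the stages than over all cells, and Piwil2 stood lower at E13.5. In S-high cells, Piwil2 stood at 21.4 CPM at E13.5 and 25.5 at E12.5 (ratio 0.840, 0.703 to 1.0002), and in G2/M-high cells at 23.2 and 26.9 (0.863, 0.740 to 1.01). Its ratio, above 1 over all cells, was below 1 in both cycling classes. Gtsf1l had ratios of 1.22 in S-high cells (0.942 to 1.58) and 1.03 in G2/M-high cells (0.852 to 1.249), against 1.92 over all cells. In low-cycle cells, of which E12.5 has 24, Piwil2 had a ratio of 1.41 (0.758 to 2.95) and Gtsf1l of 4.67 (1.59 to 22.7), the E12.5 value of Gtsf1l resting on 3 UMIs.

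Gtsf1, Mael and Mov10l1 stood higher at E13.5 within both of these cycling classes. Gtsf1 was 2.01-fold higher in S-high cells (1.57 to 2.57) and 3.76-fold higher in G2/M-high cells (3.07 to 4.64). Mael was 1.40-fold (1.29 to 1.53) and 1.88-fold higher (1.74 to 2.04), and Mov10l1 1.49-fold (1.34 to 1.65) and 1.65-fold higher (1.51 to 1.81). Of the scarce genes, Piwil4 had ratios of 1.61 (0.801 to 3.16) and 1.75 (0.977 to 3.20), and Pld6 of 1.13 (0.803 to 1.59) and 1.68 (1.16 to 2.44). At least 1.5-fold higher were Gtsf1 and Piwil4 in S-high cells, beside 10.4% of all genes, and these and Mael, Mov10l1 and Pld6 in G2/M-high cells, beside 11.7%. The part of the cell cycle in the difference between the libraries was not tested.

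Nanos2 itself stood at 25.9 CPM at E13.5 and 0.335 CPM at E12.5. At E13.5, 628 thinned cells (27.0%) held a Nanos2 UMI and 1695 did not. Gtsf1 stood at 54.8 CPM in cells with Nanos2 and 26.4 in cells without (2.07-fold, 1.84 to 2.33). Piwil4 stood at 5.16 and 2.56 (2.01-fold, 1.35 to 2.98), and Gtsf1l at 34.7 and 19.9 (1.74-fold, 1.51 to 2.01). These 3 genes were at least 1.5-fold higher, beside 6.25% of all genes. Piwil2 stood at 37.4 and 25.9 CPM, Mael at 153 and 124, Mov10l1 at 98.5 and 87.4, and Pld6 at 5.93 and 6.63.

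The clusters, made without the 8 genes and the other pathway genes, gave a similar division. In the E13.5 cluster led by Nanos2 and Taf7l (550 cells), Gtsf1 stood at 68.9 CPM, against 18.3 to 38.2 CPM in the other large clusters of that library and 7.13 to 8.76 CPM in those of the E12.5 library. Gtsf1l stood at 54.3 CPM and Piwil2 at 44.4 CPM in that Nanos2-led cluster. Piwil4 at 6.82 CPM, Mov10l1 at 112 CPM, Mael at 157 CPM and Asz1 at 52.2 CPM were also highest there among the large clusters. Pld6 was not, at 6.46 CPM against 6.84 CPM in another E13.5 cluster. Without the cells of the Nanos2-led cluster, a choice made after seeing the data, the ratio of Gtsf1 over E12.5 was 3.34. That of Gtsf1l was 1.34 and that of Piwil2 0.991.

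Genes whose levels went most alike with these were found by Pearson's r of log2(CPM + 1) over 7 sets of a cluster within a library, among 6896 genes. The points share 2 libraries, so a gene that differs by stage scores high. Taking the 3 highest of 6896 genes over so few points also gives high values, so r is given as a description. For Mov10l1 the 3 genes were Topaz1 (r = 0.997), Gtsf1 (0.993) and Asap1 (0.992), and for Gtsf1 they were Mov10l1 (0.993), Cachd1 (0.992) and Hspe1 (0.989). Mael went with Ccdc117 (0.996), Foxo1 (0.994) and Topaz1 (0.993). Topaz1, a germ cell gene, stood at 22.2 CPM at E13.5 and 5.71 CPM at E12.5. For Piwil2 the 3 genes were Supt4a (0.979), Ikbkb (0.978) and Fam178b (0.978), for Gtsf1l Cln3 (0.984), Ube4a (0.979) and Kmt2c (0.976), and for Asz1 Sptlc1 (0.996), Nanos3 (0.982) and Egln2 (0.977).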

How the data were processed

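Single-cell RNA-seq of sorted male germ cells was deposited as 1 table per stage, and per the labels' protocols the kit was 10x v2. In the deposited tables the values are raw UMI counts, not normalized by the authors. Per the submitters' processing notes, Cell Ranger and mm10 (GRCm38) were used; version and gene annotation are not given in the sources used here. Coordinates are from GENCODE M21 on GRCm38.

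Barcodes with at least 500 genes and under 10% mitochondrial UMIs were kept: 2670 of 2992 at E13.5 and 2621 of 2847 at E12.5. At E13.5, 231 had fewer genes and a further 91 had more mitochondrial UMIs; at E12.5 the numbers were 181 and 45. After log-normalisation to 10000 UMIs, barcodes of E13.5 and E12.5 were clustered in 1 run with scanpy 1.11.5 and leidenalg 0.10.2, without batch integration (resolution 0.5, 15 neighbours, 30 principal components, 2000 variable genes, the piRNA genes left out), and clusters were named from marker lists. A cluster of low UMI counts (91 barcodes at E13.5 and 109 at E12.5) stayed unnamed. Germ-like barcodes with 0.5% or more somatic marker UMIs (1 at E13.5 and 2 at E12.5) were left out. Scrublet called 26 doublets at E13.5 and 61 at E12.5, which were kept in the main values.

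The 95% intervals are exact: conditional binomial (Clopper-Pearson) for ratios, Poisson for levels and binomial for shares. UMIs count molecules, yet the intervals cover counting error only. No ratio was given where a library had under 3 UMIs of a gene or did not list it, and at least 1.5-fold is a class of size and not a test. Phase classes come from z-scores of 20 S and 20 G2/M genes over both libraries, low-cycle meaning at or below 0 on both. The named genes were the 8 genes, every other pathway gene at least 1.5-fold apart and its most abundant gene, the 3 most alike genes for members at 20 CPM or more at E13.5, and Nanos2, Pou5f1, Dppa3 and Dazl; other pathway genes near level were named after their values were seen. The members and lists were chosen with earlier results of these data known. Alternatives were edgeR 4.0.16 TMM factors, a denominator without abundant genes, all barcodes, Scrublet calls left out, a stricter cell filter (2000 genes, 5% mitochondrial), cells weighted equally, a rule of 3 germ markers per barcode, somatic-marker barcodes kept, other minimum levels and other thinning depths. The ratio and interval code was tested on simulated data.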

Additional observations from a re-analysis of the deposited data

Results flagged for a closer look

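Transcripts of the 8 genes were also seen in barcodes that entered no main comparison, though the setting with all barcodes includes them. In the unnamed low-UMI cluster they summed to 308 CPM at E13.5 (91 UMIs, 248 to 379) and 164 CPM at E12.5 (50 UMIs, 122 to 216). In barcodes removed by the cell filter they summed to 269.6 CPM at E13.5 (160 UMIs, 229 to 315) and 159 CPM at E12.5 (42 UMIs, 115 to 215). These values lie below the 357 CPM and 216 CPM of the germ-like cells at the same stages. For the unnamed low-UMI cluster, however, the intervals include the germ-like level at both stages. The part of free RNA in these barcodes was not tested.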

How the results depend on the processing

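Over 8 other settings, all 64 values of the 8 genes kept their side of 1.5-fold, and the ratio ran between 0.850 and 1.06 times the main one. Per gene the ratio ran between 1.04 and 1.18 for Piwil2, 2.40 and 2.62 for Piwil4, 1.66 and 1.78 for Mov10l1, 4.29 and 4.53 for Gtsf1, 1.63 and 2.02 for Gtsf1l, 1.70 and 1.79 for Mael, 1.10 and 1.18 for Asz1, and 1.27 and 1.34 for Pld6. With the stricter cell filter Piwil2 had 1.04 and Gtsf1l 1.63. The median mitochondrial share of germ-like cells was 4.68% at E13.5 and 3.86% at E12.5. In the Nanos2-led cluster it was 5.16%, above the 5% limit, so this filter also leaves out many cells of that cluster. Without the Nanos2-led cluster, a setting chosen after seeing the data, Gtsf1l was under 1.5-fold at 1.34 and Piwil2 at 0.991, while Piwil4 had 1.85, Mov10l1 1.62, Gtsf1 3.34, Mael 1.66 and Asz1 1.04; the cause was not tested. Of the other pathway genes, 3 were at least 1.5-fold higher at a minimum of 10 CPM, against 9 at 1 CPM, as fewer genes enter. Over all genes 7.15% were higher and 8.61% lower at 10 CPM, and 18.4% and 17.6% with no minimum. TMM scaling moved all log2 ratios by 0.0036. At 5000 UMIs the shares at E13.5 and E12.5 were 45.0% and 30.5% for Mael and 1.65% and 0.402% for Piwil4, with the order of the genes unchanged there and with no thinning. Depth limits Piwil4 and Pld6 most. No paired analysis was possible because each stage has 1 library.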
